A study of Chlorocebus sabaeus with 45 samples.

Results

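The erythroid and megakaryocyte transcription factors are the DNA-binding proteins and cofactors that direct the making of red cells and platelets. Here they are 9 genes, GATA1, KLF1, TAL1, LMO2, ZFPM1, GFI1B, NFE2, BCL11A and MYB, found by gene symbol among the 33994 genes measured. All 9 passed the filter on low values, which left 18753 genes for testing. Blood was drawn from 15 juvenile male vervet monkeys (Chlorocebus sabaeus), and whole-blood RNA was sequenced at 3 time points per animal, 45 libraries in all. The study followed how the monkeys responded to being caught and moved into captivity. The day 0 samples (time point Tp1) were drawn in the field right after trapping, under ketamine and xylazine. The day 3 (Tp2) and day 14 (Tp4) samples were drawn in quarantine, where each animal was housed alone, under dexmedetomidine and midazolam. There was no group left in the field, so time, sedation and place cannot be told apart in a comparison with day 0. Day 14 and day 3 share housing and sedation.

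GATA1 is a zinc finger protein that switches on most genes of the red cell and the platelet lineage, and ZFPM1 encodes FOG1, the cofactor that binds it. TAL1 is a helix-loop-helix protein that sits on DNA beside GATA1 in a complex bridged by LMO2 and LDB1. KLF1 binds the CACCC boxes of globin and other red cell genes, GFI1B represses genes through the demethylase KDM1A, and NFE2 pairs with small MAF proteins and is needed for platelet release. BCL11A silences fetal globin in red cells and is also required to make B cells, and MYB keeps progenitors dividing and is turned down as they mature. Red cells leave the marrow as reticulocytes that still carry RNA, and platelets carry RNA of the megakaryocyte, so a blood sample holds transcripts of both lineages. In bulk blood, fewer cells of a type and less RNA per cell cannot be told apart.

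Between 13216280 and 31469337 fragments per library fell on genes, with a median of 22785770. Levels are FPKM, the fragments of a gene per unit of its length and of library depth, scaled between libraries with TMM factors (trimmed mean of M values), so that levels of different genes can be set side by side. Changes are log2 fold changes of scaled FPKM + 0.1 within animals, tested with limma and adjusted by Benjamini-Hochberg over all 18753 genes, with a call at an adjusted p-value under 0.05. Over all tested genes, log2 fold changes from day 0 had a median of 0.01 on day 3 and −0.05 on day 14. Without TMM the day 14 median was −0.36, with 9.28% of genes called higher and 49.8% lower, so every change on day 14 is relative to the typical gene. The day 0 libraries of animals 7, 11 and 15 stood apart in their neutrophil markers. Their summed level of 12 neutrophil markers was 29973 to 42068 scaled FPKM, against 1373 to 11105 in the other 12 animals. A fit without these animals was added after the data were seen, and each call of a factor lost in it is given, as are some of its counts for the gene lists. The day 3 library of animal 8 had the lowest median r with the other libraries (0.860), against 0.866 to 0.942 in the rest. The RNA integrity number, a measure of how intact the RNA of each sample was, had a higher mean on each later day and was lowest in that library, so RNA quality moved with the days. Its part in the changes was tested only as a covariate.

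NFE2 and KLF1 had the highest medians at every time point and ZFPM1 the lowest. On day 0 the order of medians was NFE2 (76.2 scaled FPKM), KLF1 (35.3), LMO2 (31.7), GATA1 (16.4), TAL1 (6.46), GFI1B (1.78), MYB (1.49), BCL11A (1.43) and ZFPM1 (0.551). KLF1 and LMO2 were neighbours that did not separate, with KLF1 above LMO2 in 7 of 15 animals. The order had changed by day 14, when KLF1 led with a median of 238, ahead of NFE2 at 226 and of GATA1 at 71.6. KLF1 then exceeded NFE2 in 9 of 15 animals and GATA1 exceeded LMO2 in 14 of 15, whereas on day 0 LMO2 had exceeded GATA1 in 13 of 15. TAL1 lay just under LMO2 on day 14, with LMO2 higher in 10 of 15 animals.

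**Figure D1:**
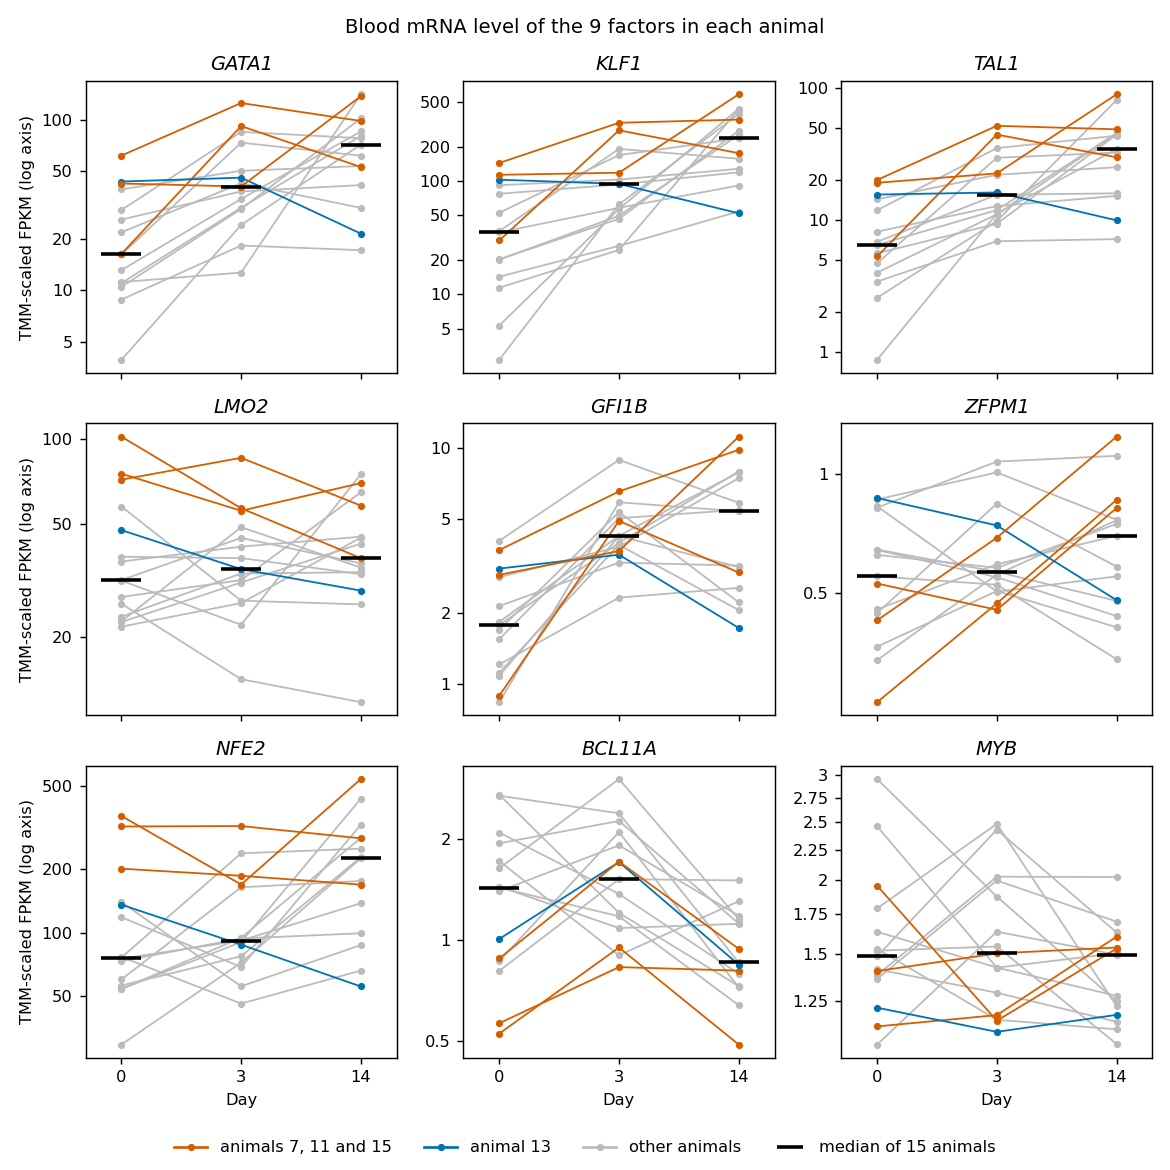
Level of each factor (TMM-scaled FPKM, log axis) on days 0, 3 and 14, with 1 line per animal and a black bar at the median of 15 animals. GATA1, KLF1, TAL1 and GFI1B are higher on days 3 and 14 than on day 0 in at least 14 of 15 animals, while lines cross between days 3 and 14, animal 13 (blue) ends lower on day 14 than on day 0 in all 9 panels, and animals 7, 11 and 15 (orange) start high for NFE2 and LMO2.

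GATA1, KLF1, TAL1 and GFI1B rose by day 3, and NFE2 was added to them by day 14, when BCL11A was lower than on day 0. Compared with day 0, 4 of the 9 factors were called on day 3, all higher, where 19.4% of all tested genes were called, 10.1% higher and 9.26% lower. On day 14 vs. day 0, 6 were called, 5 of them higher, against 44.2% of all genes in either direction, 20.7% higher and 23.4% lower. On day 14 vs. day 3, 4 were called, with KLF1, TAL1 and NFE2 higher and BCL11A lower, against 25.4% of all genes, 12.2% higher and 13.2% lower. These 3 comparisons share samples, so a call in each is not a separate line of evidence. LMO2, ZFPM1 and MYB passed the threshold in none of the 3 with TMM scaling. Without TMM scaling, LMO2 and MYB were called lower on day 14.

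**Figure D2:**
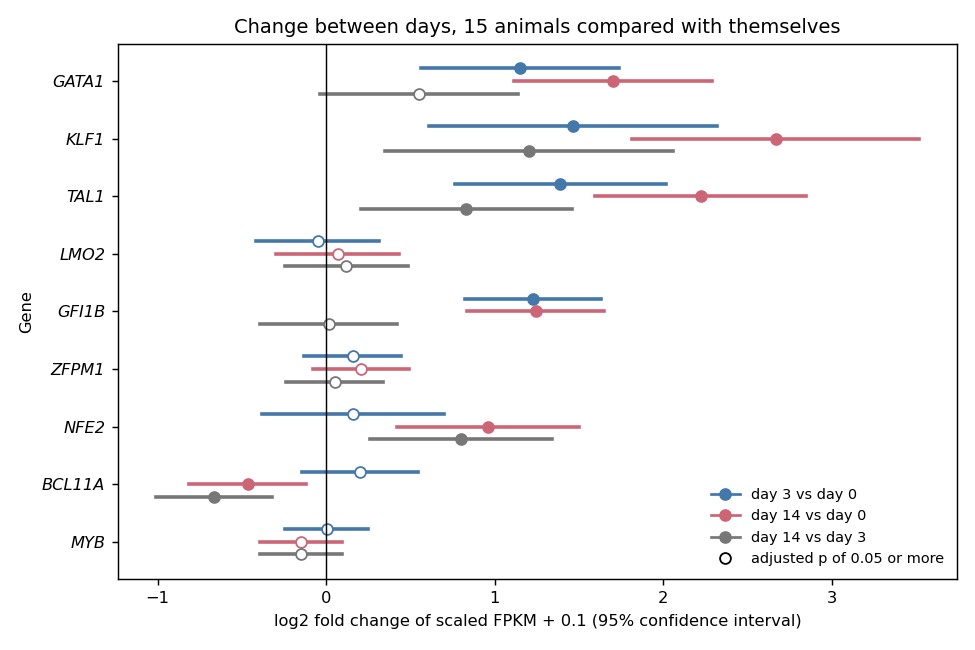
Log2 fold change of scaled FPKM + 0.1 (x axis) with its 95% confidence interval for each factor (y axis) in the 3 comparisons, from limma with the 15 animals as blocks. Filled points have an adjusted p-value under 0.05. KLF1 has the largest fitted change on day 14 (2.67), followed by TAL1 (2.22), GATA1 (1.70), GFI1B (1.24) and NFE2 (0.96).

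GATA1 ranged from 3.92 to 61.7 scaled FPKM on day 0, with a median of 16.4. Its median was 40.6 on day 3 (range 12.7 to 125) and 71.6 on day 14 (range 17.2 to 141). All 15 day 14 samples lay above the day 0 median, and 8 of them lay above the highest day 0 sample, although the ranges overlapped. The mean rose from 23.7 ± 16.4 (SD, n = 15) on day 0 to 49.5 ± 31.2 on day 3 and 71.5 ± 37.7 on day 14. The log2 fold change was 1.15 (SE 0.29) on day 3 vs. day 0, an adjusted p of 0.00541, with 14 of 15 animals higher. It was 1.70 (SE 0.29, adjusted p = 1.91e-05) on day 14 vs. day 0, a 3.25-fold rise with a 95% confidence interval of 2.16 to 4.88, again in 14 of 15 animals. At least 14 animals were higher on day 14 for 7.37% of tested genes. From day 3 to day 14 the value was 0.55, with an interval of −0.03 to 1.14, and the adjusted p of 0.154 did not pass. In that step 8 of 15 animals were higher, so the animals moved in both directions.

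KLF1 moved over the widest range of levels. Its day 0 samples spanned 2.65 to 145 scaled FPKM, with a median of 35.3. The median was 93.3 on day 3 (24.7 to 327) and 238 on day 14 (52.0 to 583). Of the day 14 samples, 10 of 15 lay above every day 0 sample. The log2 fold change was 1.46 (SE 0.42, adjusted p = 0.0130) on day 3 vs. day 0 and 2.67 (SE 0.42, adjusted p = 6.91e-06) on day 14 vs. day 0, each with 14 of 15 animals higher. The day 14 change was a 6.35-fold rise (95% confidence interval 3.51 to 11.5). Without animals 7, 11 and 15 the day 3 change was 1.46 with an adjusted p of 0.0535, which did not pass, while the day 14 change was 2.82 (adjusted p = 9.04e-05). The step from day 3 to day 14 was 1.20 (SE 0.42, adjusted p = 0.0339), with 12 of 15 animals higher.

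TAL1, the DNA-binding partner of GATA1, had a median of 6.46 scaled FPKM on day 0 (range 0.865 to 20.1), 15.6 on day 3 (6.89 to 52.0) and 34.5 on day 14 (7.15 to 90.2). All 15 day 3 samples exceeded the day 0 median, and 11 of the day 14 samples exceeded the highest day 0 sample. It rose in all 15 animals by day 3, where 1.31% of tested genes were higher in every animal. The log2 fold change was 1.39 (SE 0.31, adjusted p = 0.00216) on day 3 and 2.22 (SE 0.31, adjusted p = 1.47e-06) on day 14, both vs. day 0. The day 14 rise was 4.66-fold (95% confidence interval 3.02 to 7.19). From day 3 to day 14 TAL1 changed by 0.83 (SE 0.31, adjusted p = 0.0448), with 12 of 15 animals higher.

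The rise between days 3 and 14 was the least firm of these results. None of KLF1, TAL1 and NFE2 passed without the animal as a block (adjusted p = 0.0681, 0.109 and 0.0856) or with the RNA integrity number added to the block (0.0941, 0.0823 and 0.0876). Without a filter on low values the calls of KLF1 (0.0609) and TAL1 (0.0799) were lost, and TAL1 also did not pass without TMM scaling (0.48, adjusted p = 0.0800) or by the exact sign-flip test (adjusted p = 0.0674). All 3 calls were also lost when any of animals 3, 8, 12 and 14 was left out. Without animal 15 the calls of KLF1 (adjusted p = 0.0613) and TAL1 (0.0864) were lost, and without animals 2, 5 or 9 that of TAL1 alone. With each animal left out in turn the fitted values stayed above 0, from 0.99 to 1.35 for KLF1, from 0.67 to 0.94 for TAL1 and from 0.69 to 0.90 for NFE2.

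GFI1B, the repressor that acts with KDM1A, rose by day 3 and, like GATA1, was not called from day 3 to day 14. Its day 0 samples ran from 0.841 to 4.04 scaled FPKM with a median of 1.78. The day 3 samples ran from 2.33 to 8.89 with a median of 4.24, and the day 14 samples from 1.73 to 11.1 with a median of 5.39. Each day 3 sample was above the day 0 median, and 8 were above the highest day 0 sample. The gene was covered by 45 to 635 fragments per library, fewer than the 143 to 3526 of GATA1. Its log2 fold change was 1.23 (SE 0.20, adjusted p = 2.12e-04) on day 3, with all 15 animals higher, and 1.24 (SE 0.20, adjusted p = 9.12e-06) on day 14, with 14 of 15 higher. From day 3 to day 14 it was 0.01, with an interval of −0.39 to 0.42, and 7 of 15 animals were higher.

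NFE2 had a late rise. Its median was 76.2 scaled FPKM on day 0 (29.4 to 359), 91.8 on day 3 (46.0 to 322) and 226 on day 14 (55.5 to 538). The highest day 0 levels, 202 to 359, were those of animals 7, 11 and 15, while the other 12 animals lay between 29.4 and 140. Thus only 2 of the day 14 samples exceeded the highest day 0 sample. On day 3 vs. day 0 it changed by 0.16 (adjusted p = 0.725), with an interval of −0.38 to 0.70 and 9 of 15 animals higher. On day 14 vs. day 0 it was 0.96 (SE 0.26, adjusted p = 0.00387), a 1.94-fold rise in 10 of 15 animals, and on day 14 vs. day 3 it was 0.80 (SE 0.26, adjusted p = 0.0266) in 12 of 15. Without animals 7, 11 and 15 the values were 0.30 on day 3 (adjusted p = 0.572) and 1.18 on day 14 (adjusted p = 0.00308). With the RNA integrity number in the fit, the day 14 call vs. day 0 was lost (0.86, adjusted p = 0.0731).

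The complex members LMO2 and ZFPM1 were not called over the days with TMM scaling, unlike GATA1 and TAL1. LMO2, the bridge between TAL1 and LDB1, had medians of 31.7, 34.7 and 37.9 scaled FPKM on days 0, 3 and 14. Its ranges were 21.7 to 102, 14.2 to 85.5 and 11.8 to 74.9, which overlapped almost fully. Its change was −0.05 on day 3 (interval −0.42 to 0.31) and 0.07 on day 14 (−0.30 to 0.43). Its sign on day 14 flipped without TMM scaling, where the value was −0.32 and was called (adjusted p = 0.0180). As with NFE2, the 3 animals with high neutrophil marker sums had the highest day 0 levels of LMO2, 71.6 to 102 against 21.7 to 57.6 in the others. ZFPM1, the GATA1 cofactor, had medians of 0.551, 0.565 and 0.698 scaled FPKM and log2 fold changes of 0.16 (adjusted p = 0.478) on day 3 and 0.21 (interval −0.08 to 0.49, adjusted p = 0.243) on day 14. It was covered by only 15 to 113 fragments per library.

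BCL11A was the only one of the 9 to be called lower with TMM scaling. Its medians were 1.43 scaled FPKM on day 0 (0.525 to 2.71), 1.52 on day 3 (0.829 to 3.02) and 0.855 on day 14 (0.487 to 1.50). None of the day 14 samples reached the day 3 median, and 6 lay below every day 3 sample. BCL11A changed by 0.20 on day 3 vs. day 0 (adjusted p = 0.450). It was −0.67 (SE 0.17, adjusted p = 0.00591) on day 14 vs. day 3, with 13 of 15 animals lower, and −0.47 (SE 0.17, adjusted p = 0.0247) on day 14 vs. day 0, with 12 of 15 lower. The fall from day 3 passed in each fit that left out an animal (adjusted p up to 0.0182). The fall from day 0 did not pass without animals 1, 9, 12 or 14 (adjusted p = 0.0605, 0.0698, 0.0560 and 0.0686), without the animal block (0.0597), by the exact sign-flip test (0.0569), or with the RNA integrity number (−0.29, adjusted p = 0.364).

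MYB stayed within 1.06 to 2.96 scaled FPKM in all 45 libraries. Its medians were 1.49, 1.50 and 1.50 on the 3 days. It changed by 0.00 on day 3 (interval −0.24 to 0.25) and −0.15 on day 14 vs. day 0 (−0.39 to 0.09, adjusted p = 0.325). Without TMM scaling it was called lower on day 14, by −0.52 vs. day 0 (adjusted p = 0.00363) and by −0.48 vs. day 3 (adjusted p = 0.00858). The SD of its level was 0.507 on day 0 and 0.267 on day 14.

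Some of the rising factors differed in how far they rose. Within animals, the day 14 change of KLF1 exceeded that of GATA1 by 0.96 ± 0.95 log2 units (SD, n = 15), in 14 of 15 animals (two-sided exact sign-flip permutation test, unadjusted p = 2.44e-04). TAL1 exceeded GATA1 by 0.52 ± 0.40, also in 14 of 15 (exact sign-flip p = 3.66e-04). NFE2 rose less than GATA1, with a difference of −0.74 ± 0.74 (exact sign-flip p = 0.00153), and GFI1B minus GATA1 was −0.46 ± 0.85 (exact sign-flip p = 0.0568), with the animals divided 7 to 8. KLF1 was not separated from TAL1 (0.45 ± 1.03, 10 of 15 animals, exact sign-flip p = 0.107), nor NFE2 from GFI1B (−0.28 ± 0.98, exact sign-flip p = 0.277). By contrast, on day 3 vs. day 0 the changes of KLF1, TAL1 and GFI1B differed from that of GATA1 by 0.31, 0.24 and 0.08, with exact sign-flip p-values of 0.130, 0.130 and 0.648. From day 3 to day 14, TAL1 gained on GFI1B by 0.82 ± 0.77 in 14 of 15 animals (exact sign-flip p = 0.00140). NFE2 gained on GFI1B by 0.78 ± 0.72 in 13 of 15 (p = 0.00165 by the same exact test). In that step GFI1B minus GATA1 was −0.54 ± 0.87, below 0 in 10 of 15 animals (exact sign-flip p = 0.0283). The change of TAL1 from day 0 exceeded that of its complex partner LMO2 in all 15 animals, both on day 3 (by 1.44 ± 1.13) and on day 14 (by 2.15 ± 1.19), with p = 6.1e-05 in each, the smallest the exact sign-flip test can give. These are part of the 39 such differences computed for the 3 comparisons, and the p-values are not adjusted. Only differences from GATA1 were planned, and the pairs without GATA1 were added outside the plan. TAL1 minus LMO2 sets a called factor against one that was not called.

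The animals differed widely in how far the factors moved. Animal 9 had the lowest day 0 level of GATA1, KLF1, TAL1, NFE2, GFI1B and LMO2, and the largest day 14 rise of GATA1 (4.16), KLF1 (7.15), TAL1 (5.17) and GFI1B (2.54). Without it the day 14 changes were 1.53 for GATA1, 2.35 for KLF1, 2.01 for TAL1 and 1.15 for GFI1B, and all 4 stayed past the threshold. Animal 13 went the other way. All 9 factors were lower in it on day 14 than on day 0, GATA1 by −1.01, KLF1 by −0.98, TAL1 by −0.65, NFE2 by −1.29 and GFI1B by −0.80. Animal 8 had the largest rises from day 3 to day 14 in GATA1 (3.46), KLF1 (4.11) and TAL1 (3.04), after a day 3 level that was the lowest of all animals for GATA1 (12.7 scaled FPKM) and KLF1 (24.7), in the library that was least like the others. Without animal 8 the change from day 3 to day 14 was 0.34 for GATA1, 0.99 for KLF1 (adjusted p = 0.0968) and 0.67 for TAL1 (adjusted p = 0.110). Grouping the 5 factors that were higher on day 14, a grouping made after their values were seen, all 5 were higher on day 14 than on day 0 in 10 of 15 animals, and at least 4 of them in 14 of 15. On day 3 vs. day 0 the counts were 9 and 13.

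**Figure D3:**
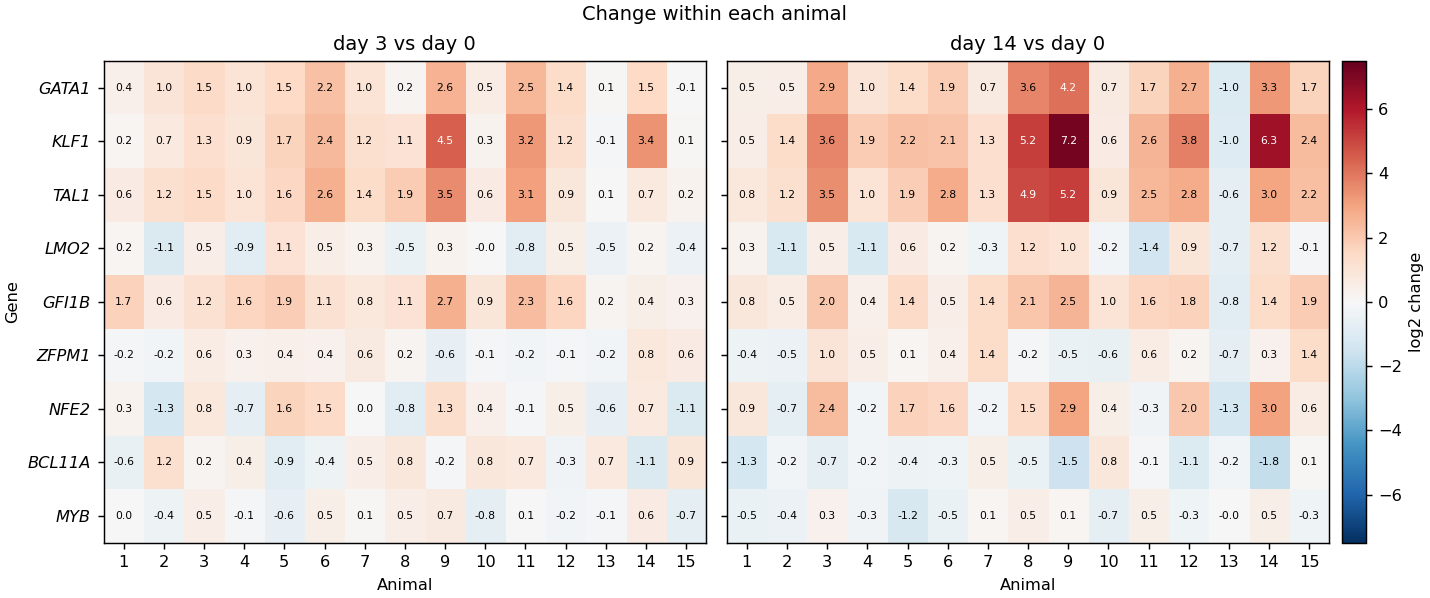
Log2 change within each of the 15 animals (columns) for each factor (rows) on day 3 and day 14, both vs. day 0, with red for higher and blue for lower. KLF1 reaches 7.15 in animal 9 on day 14, and the column of animal 13 is below 0 for all 9 factors.

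Several lists of cell type markers moved over the same days. Of 10 reticulocyte markers, 7 were called higher on day 3 and 10 on day 14, with a median log2 fold change of 1.26 and 2.73. Fewer were called on day 3 without animals 7, 11 and 15 (3 of 10, median 1.24), with the RNA integrity number (4) or without the animal block (5), while all 10 were called on day 14 in each of these fits. Their summed level had a median of 5719 scaled FPKM on day 0 (623 to 27765), 15753 on day 3 (4031 to 49170) and 42969 on day 14 (8996 to 80258). ALAS2, the first enzyme of erythroid heme synthesis, made up 51.1% to 83.3% of that sum. Of 7 platelet markers, 7 were higher on day 3 (median 1.48) and 4 on day 14 (median 0.74), and 6 were lower on day 14 than on day 3. Without those 3 animals 2 platelet markers were higher on day 14, and with the RNA integrity number or without TMM scaling 1 was. The number lower on day 14 than on day 3 was 4 without the 3 animals and 3 with the RNA integrity number or without the block. The 10 markers of proliferating cells were higher in 7 cases on day 3 and in 10 on day 14 (median 1.15), with median sums of 56.5, 130 and 198 scaled FPKM on the 3 days. Their day 3 count was 4 without animals 7, 11 and 15, 3 with the RNA integrity number and 5 without the block. Of 12 neutrophil markers 8 were lower on day 3 (median −1.15) and 11 on day 14 (median −1.39). Without animals 7, 11 and 15 these counts were 3 (median −0.50) and 9 (median −0.96). Of 11 B cell markers 6 were lower on day 14 than on day 0, and 8 were lower than on day 3. The day 14 vs. day 0 count was 10 without the 3 animals, 11 without TMM scaling, 3 without the block and 2 with the RNA integrity number. The day 14 vs. day 3 count was 5 without the block, 7 with the RNA integrity number and 11 without TMM scaling, where 46.2% of all genes were lower. Of 13 stem and progenitor markers, CD34, HOXA9, CRHBP and AVP had a mean level under 0.1 FPKM. Of the other lists, 5 of 7 NK cell, 4 of 10 T cell, 4 of 7 basophil and mast cell, 1 of 7 eosinophil, 3 of 12 tested progenitor and 6 of 9 nucleated red cell markers were higher on day 14 vs. day 0, where 20.7% of all tested genes were higher. The eosinophil share (14.3%) and the progenitor share (25.0%) lay near that background. The 1 eosinophil marker called was ALOX15 (1.71), which also had the highest mean level of its list (27.3 scaled FPKM over the 45 libraries). On day 14 vs. day 0 PRG2, PRG3, EPX and RNASE2 had values below 0 and IL5RA and CCR3 above 0, none of them called. Without TMM scaling 0 T cell markers were higher and 5 of 10 lower, where 9.28% of all tested genes were higher and 49.8% lower. In that fit 1 basophil and mast cell and 1 progenitor marker were higher. With the RNA integrity number no T cell and 1 progenitor marker was called, and without animals 7, 11 and 15 the T cell list had 2 higher and 2 lower and the basophil and mast cell list 2 higher. Of 8 monocyte markers 4 were lower (2 without the 3 animals and 1 with the RNA integrity number), and of 4 plasmacytoid dendritic cell markers 1 was higher and 1 lower, where 23.4% of all genes were lower. No marker of any list was at 0 in all 45 libraries. The part of these cell types in the changes of the factors was not tested.

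Over the 45 libraries, which are 15 animals sampled 3 times, GATA1, KLF1 and TAL1 followed the reticulocyte sum with Pearson r of 0.95, 0.95 and 0.94 on the log2 scale. They followed the sum of proliferating cell markers as closely, with r of 0.95, 0.94 and 0.95. The largest part of that sum was MCM2, with means of 31.6, 79.5 and 121.6 scaled FPKM on the 3 days, against median sums of 56.5, 130 and 198. With the time point means removed, r of the 3 factors with reticulocytes was 0.93, 0.92 and 0.90. NFE2 had r of −0.77 with the B cell sum, 0.72 with the proliferating cell sum and 0.71 with the reticulocyte sum, and with the means removed its largest positive r was with neutrophils (0.73). GFI1B had 0.66 and 0.67, which fell to 0.47 and 0.45 with the means removed. LMO2 had r of −0.69 with B cells, its largest in size, and 0.61 with monocytes, 0.58 with neutrophils, 0.53 with proliferating cells, 0.47 with eosinophils and 0.45 with reticulocytes. With the means removed r was −0.71 with B cells, 0.71 with proliferating cells, 0.67 with neutrophils, 0.62 with monocytes and 0.58 with reticulocytes. BCL11A followed the B cell sum (0.80), and MYB and ZFPM1 had their largest r, 0.41 and 0.28, with the eosinophil sum. ALOX15 had the highest mean level in that sum and moved apart from most of its other genes. All these sums share libraries and scaling with the factors, so r is given as a description.

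**Figure D4:**
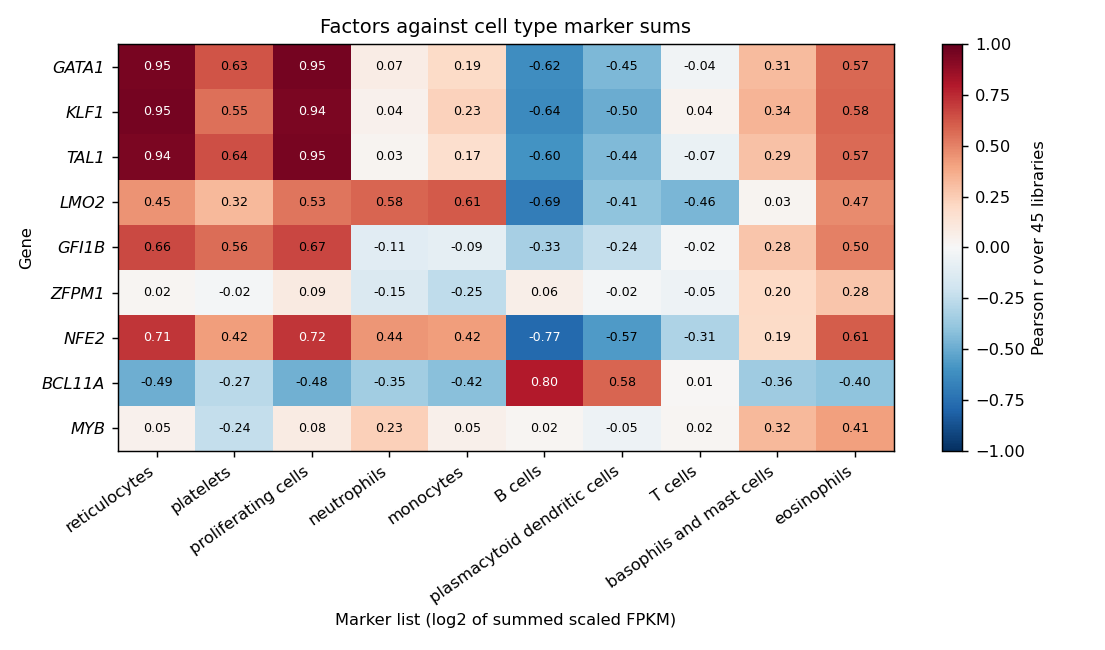
Pearson r over 45 libraries between the log2 level of each factor (rows) and the log2 of the summed scaled FPKM of each marker list (columns). GATA1, KLF1 and TAL1 are at 0.94 to 0.95 with both reticulocytes and proliferating cells, LMO2 at 0.61 with monocytes and BCL11A at 0.80 with B cells.

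The reticulocyte sum rose more than most of the factors did. The ratio of KLF1 to the reticulocyte sum changed by 0.14 ± 0.66 log2 units (SD, n = 15) on day 14 vs. day 0, with 9 of 15 animals higher. That of TAL1 changed by −0.28 ± 0.61 and was lower in 11 of 15. The ratio of GATA1 changed by −0.82 ± 0.64 and was lower in 14 of 15 animals, and from day 3 to day 14 it was lower in all 15 (−0.60 ± 0.34). The ratios of GFI1B and NFE2 changed by −1.24 ± 1.34 (12 of 15 lower) and −1.57 ± 1.18 (13 of 15 lower). Against the platelet sum, whose median went from 628 scaled FPKM on day 0 to 1980 on day 3 and 1422 on day 14, the day 14 vs. day 0 ratio change was 0.13 ± 0.96 for GFI1B (7 of 15 animals higher) and 1.51 ± 1.86 for KLF1 (12 of 15 higher). The ratio of BCL11A to the B cell sum changed by −0.17 on day 14 vs. day 0, with 11 of 15 animals lower.

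The genes for proteins that join these factors in complexes moved in both directions. Of 51 partner genes, 12 were higher and 5 lower on day 3, 11 higher and 19 lower on day 14 vs. day 0, and 3 higher and 13 lower on day 14 vs. day 3. The share called higher on day 14 vs. day 0, 21.6%, was near the 20.7% of all tested genes, and 37.3% were called lower against 23.4%. On day 3 the shares were 23.5% higher and 9.80% lower against 10.1% and 9.26%, and on day 14 vs. day 3 they were 5.88% and 25.5% against 12.2% and 13.2%. Their median log2 fold changes were 0.04, −0.12 and −0.17, against 0.01, −0.05 and −0.05 over all tested genes. Among the called partners, the largest changes on day 14 were those of E2F2 (2.48, adjusted p = 2.79e-07), a cell cycle regulator that is also in the erythroid target list, FOXO3 (2.26, adjusted p = 2.29e-06), which acts in red cell maturation, and SOX6 (2.22, adjusted p = 1.12e-06), which represses embryonic globin. E2F2 rose in all 15 animals, from 4.92 ± 3.49 to 29.4 ± 21.8 scaled FPKM. Without TMM scaling, 6 partners were higher and 35 lower on day 14 vs. day 0 (9.28% and 49.8% of all genes). With the RNA integrity number 10 were higher and 11 lower (11.4% and 11.8%). Between days 3 and 14 the counts were 2 higher and 35 lower without TMM scaling (4.99% and 46.2% of all genes). They were 1 and 9 without the block (7.17% and 7.31%), and 1 and 5 with the RNA integrity number (6.43% and 4.31%). Without animals 7, 11 and 15, 11 were higher and 2 lower on day 3, and 10 were higher and 13 lower on day 14 vs. day 0.

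Direct partners split even within families. Of the helix-loop-helix proteins, LYL1, the close relative of TAL1, rose by 1.18 on day 14 (adjusted p = 2.48e-06, 14 of 15 animals) and the E protein TCF3 by 0.63 (adjusted p = 3.31e-04), while the E protein TCF12 was lower (−0.31, adjusted p = 2.38e-04). LDB1, the scaffold of the complex, was lower by −0.25 (adjusted p = 9.48e-04, 14 of 15 animals). Of the small MAF partners of NFE2, MAFG was lower by −0.83 (adjusted p = 3.09e-05) and MAFK by −0.32 (adjusted p = 0.0151), while MAFF had 0.07 (adjusted p = 0.640). Of the BACH proteins, which also pair with small MAFs, BACH1 had 0.00 (adjusted p = 0.986) and BACH2, which acts in B cells, was lower by −0.89 (adjusted p = 1.23e-05, 13 of 15 animals). MAFF and BACH2 were named after their values were seen. GFI1, the paralog of GFI1B, was higher by 0.52 (adjusted p = 0.00347), and the corepressors KDM1A and RCOR1 had 0.04 (adjusted p = 0.667) and −0.23 (adjusted p = 0.0690). GATA2, which precedes GATA1 on shared sites in progenitors, had 0.41 (adjusted p = 0.0857). RUNX1 and FLI1, which work with GATA1 in megakaryocytes, were lower by −0.74 (adjusted p = 3.98e-06) and −0.20 (adjusted p = 0.0210). SPI1, the myeloid factor that opposes GATA1, was lower by −0.94 (adjusted p = 1.74e-04), in 13 of 15 animals, as were 11 of 12 neutrophil markers. The calls of FLI1 and GFI1 were lost without animals 7, 11 and 15 (adjusted p = 0.0723 and 0.0751) and with the RNA integrity number (0.229 and 0.119). Without TMM scaling GFI1 (0.14) and TCF3 (0.24) did not pass, and BACH1 (−0.39), KDM1A (−0.35) and RCOR1 (−0.61) were called lower.

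Most erythroid target genes were higher on day 3 and on day 14 than on day 0. Of 34, 26 were higher and 2 lower on day 3, 30 higher and 1 lower on day 14 vs. day 0, and 17 higher and 1 lower on day 14 vs. day 3, with medians of 1.20, 2.23 and 0.83. Over all tested genes 10.1%, 20.7% and 12.2% were higher and 9.26%, 23.4% and 13.2% lower in the same comparisons. Without animals 7, 11 and 15, 18 were higher on day 3. Between days 3 and 14, 7 were higher with the RNA integrity number (6.43% of all genes), 10 without the animal block (7.17%), and 15 without the 3 animals. The largest day 14 changes were those of TMCC2 (3.08, adjusted p = 9.62e-07), the anion exchanger SLC4A1 (3.06, adjusted p = 2.28e-06) and the survival protein BCL2L1 (2.89, adjusted p = 2.79e-07), each in 14 of 15 animals. SLC4A1 went from 68.3 ± 73.6 scaled FPKM on day 0 to 249 ± 204 on day 3 and 492 ± 532 on day 14. The genes called lower, named here after their values were seen, were CD44 (−0.38) and CDKN1B (−0.27) on day 3, CD44 (−0.36) on day 14 vs. day 0 and TSPAN33 (−0.61) on day 14 vs. day 3. The list holds 9 of the 10 reticulocyte markers, so the counts of both lists are not independent. Of 11 globin symbols sought, 4 were among the genes measured and 3 passed the filter. These were HBQ1 (2.58), HBM (2.46) and HBZ (2.30), all called higher on day 14 (adjusted p = 3.84e-06, 3.39e-05 and 9.44e-06). On day 3 vs. day 0, 1 of the 3 was called higher, and 0 without animals 7, 11 and 15. The libraries had been depleted of globin RNA, and HBE1 had a mean level under 0.1 FPKM.

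Most megakaryocyte and platelet target genes were higher on day 3 than on day 0, and fewer were on day 14. Of 30, 23 were higher and none lower on day 3, 13 higher and 2 lower on day 14 vs. day 0, and none higher and 19 lower on day 14 vs. day 3. The medians were 1.23, 0.48 and −0.68, and the shares over all tested genes are those given for the erythroid targets. The list holds all 7 platelet markers measured. On day 14 vs. day 0 the largest called changes were those of the receptor CLEC1B (1.42, adjusted p = 2.51e-04), the platelet chemokine PPBP (1.24, adjusted p = 9.13e-04) and cortactin, CTTN (1.03, adjusted p = 0.00847). Without TMM scaling, 4 were higher and 5 lower on day 14 vs. day 0 (9.28% and 49.8% of all genes), with the RNA integrity number 2 were higher and 1 lower (11.4% and 11.8%), without the block 8 were higher and 1 lower (16.8% and 19.4%), and without animals 7, 11 and 15, 9 were higher and 2 lower. Between days 3 and 14, 9 were lower without the block (7.31% of all genes), 10 with the RNA integrity number (4.31%) and 16 without the 3 animals. The genes called lower on day 14 vs. day 0, named after their values were seen, were LYN (−0.77) and TBXAS1 (−0.51).

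**Figure D5:**
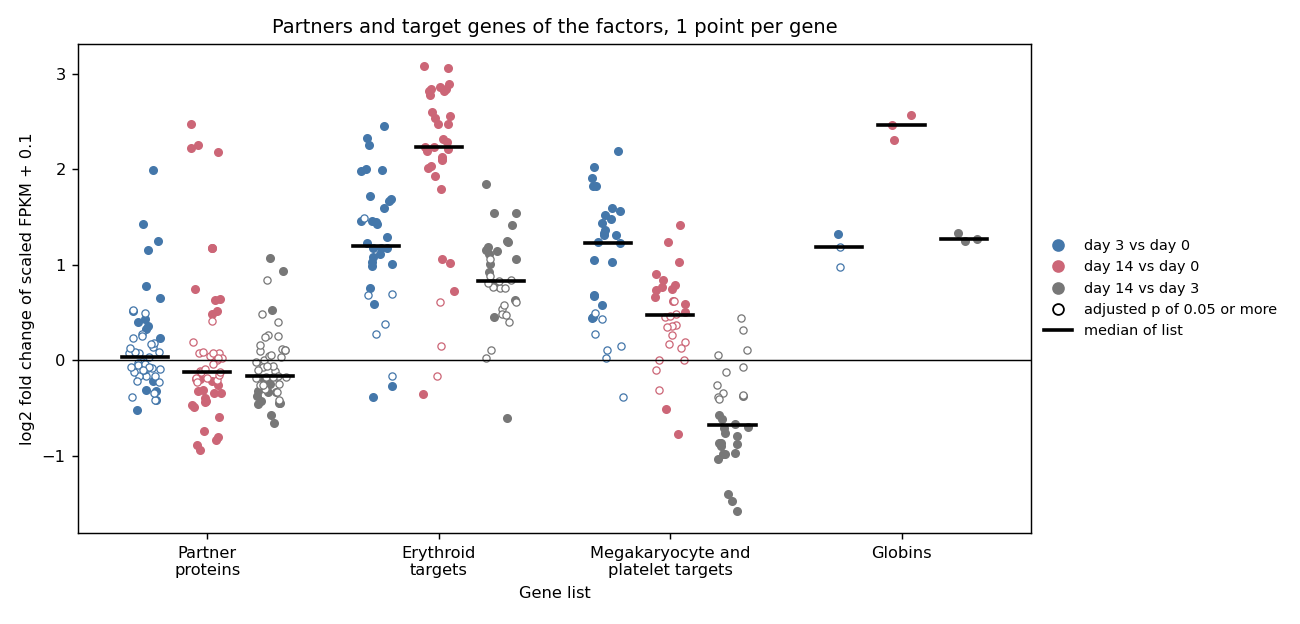
Log2 fold change of scaled FPKM + 0.1 (y axis) of each gene in 4 lists (x axis) for the 3 comparisons, with filled points for an adjusted p-value under 0.05 and a black bar at the list's median. Against day 0, the median of the erythroid targets is 1.20 on day 3 and 2.23 on day 14, that of the megakaryocyte and platelet targets is 1.23 and 0.48, and the partner proteins centre near 0.

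The genes whose levels were most like each factor were sought by Pearson r over the 45 libraries among 12887 genes with a mean of at least 1 FPKM. GATA1 was closest to LOC103227669, the globin HBQ1 and TAL1, all with r of 0.972. KLF1 was closest to JOSD2 (0.977), PAQR9 (0.973) and ACSL6 (0.972), and TAL1 to SLC25A39 (0.975), MARCH8 (0.973) and GATA1. NFE2 had UBAP1 (0.942), CLK3 (0.936) and GABARAP (0.930) nearest, and did not list a factor of the set. GFI1B was nearest to FAM65C (0.859), EHD3 (0.837) and SLC1A5 (0.835). LMO2 was nearest to SH3GLB1 (0.839), USP32 (0.838) and ACTR10 (0.830). BCL11A was nearest to the B cell genes CD22 (0.942) and PAX5 (0.940), followed by ITPR1 (0.916). ZFPM1 and MYB had no close match, with CITED2 (0.637), SLC29A1 (0.588) and MGAT4B (0.577) for ZFPM1 and PRG3 (0.612), LTF (0.612) and WDR89 (0.606) for MYB. Among the factors, GATA1, KLF1 and TAL1 were tied at r of 0.95 to 0.97, and NFE2 had r of 0.79 to 0.81 with each of them and with LMO2. GFI1B had 0.72 with TAL1, 0.70 with GATA1 and 0.66 with KLF1. LMO2 had 0.62 with GATA1, 0.58 with KLF1 and 0.56 with TAL1, which rose to 0.77, 0.73 and 0.73 with the time point means removed. BCL11A had a negative r with GATA1 (−0.53), KLF1 (−0.58), NFE2 (−0.65) and LMO2 (−0.60).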

How the data were processed

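Blood RNA was extracted from PAXgene tubes, and stranded libraries were made after removal of ribosomal and globin RNA. The authors used STAR for alignment and HTSeq for counting, and the deposited values are FPKM per gene and sample, known by gene symbol alone. Build and annotation coordinates are not used here, and no sequence was analysed here. Every FPKM value above 0 was a whole number of fragments within 0.01, which gave the depth of each library (13216280 to 31469337 fragments).

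FPKM were scaled by TMM, 0.1 was added, and log2 values of genes with over 0.5 CPM in at least 3 samples were fitted with limma 3.58.1 (R 4.3.3), with a mean per time point and the animal as block. The labels name the animal of each sample. After the time point means were removed, r across genes averaged 0.328 within animals and −0.023 between animals. The study used a count model, and its deposited table is in FPKM, so a log scale test took its place. The fit was also run on simulated data, without TMM scaling and with the same spread for every gene. That run does not test the scaling and is not used as support here. Differences within animals were tested by an exact sign-flip test over 32768 sign patterns. Alternatives were no block, no TMM, median-of-ratios scaling, other pseudocounts and filters, the RNA integrity number (from the supplement of the study) with the block, voom on the recovered fragments, the sign-flip test, and each animal left out. A fit without animals 7, 11 and 15 was added after the data were seen. The 9 factors and all gene lists were chosen with earlier results of these data known, so no list was tested as a set. The genes named by rule are the 9 factors, the direct partners and the 3 genes most like each factor. Of the partner, target and globin lists, the 3 called genes with the largest day 14 change and a mean of at least 1 FPKM are named. Others were named after their values were seen. They are target genes called lower, MAFF and BACH2, list genes with a mean under 0.1 FPKM, ALAS2, MCM2 and the eosinophil markers.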

Additional observations from a re-analysis of the deposited data

How the results depend on the processing

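Of 699 alternative values for the 9 factors over the 3 comparisons, 628 kept their direction and their side of the threshold, 36 kept their direction and lost the call, 2 gained one and 33 changed sign, all 33 of them for factors not called in the comparison concerned. On day 3 vs. day 0, the 4 calls held in each alternative except KLF1 without animals 7, 11 and 15. On day 14 vs. day 0, GATA1, KLF1, TAL1 and GFI1B were called in each alternative. The number called lower there was 0 without the replicate block, 0 with the replicate block and the RNA integrity number, 0 by the sign-flip test, 3 without TMM, and 0 to 1 with each animal left out. On day 14 vs. day 3 the number called was 1 without the block, 2 without a filter, 1 with the RNA integrity number and 1 to 4 with each animal left out. The number called higher was 0, 1, 0 and 0 to 3 in the same order, and the number called lower was 2 without TMM. The cause was not tested.

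The sign changed as follows. Without TMM the log2 fold change was −0.0353 for MYB on day 3, −0.32 for LMO2 and −0.14 for ZFPM1 on day 14 vs. day 0, and −0.33 for GFI1B, −0.23 for LMO2 and −0.26 for ZFPM1 on day 14 vs. day 3. MYB had −0.0108 on day 3 with median-of-ratios scaling, LMO2 −0.0743 on day 14 vs. day 0 with the RNA integrity number, and ZFPM1 −0.0040 on day 14 vs. day 3 by voom. Without animals 7, 11 and 15, LMO2 had 0.0197 on day 3, ZFPM1 −0.0183 on day 14 vs. day 0, and GFI1B −0.10 and ZFPM1 −0.13 on day 14 vs. day 3. With each animal left out, LMO2 spanned −0.13 to 0.0229 and MYB −0.0459 to 0.0558 on day 3, LMO2 −0.0160 to 0.17 on day 14 vs. day 0, and GFI1B −0.0971 to 0.10 and ZFPM1 −0.0020 to 0.0914 on day 14 vs. day 3.

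Without TMM, 4.99% of tested genes were higher and 46.2% lower on day 14 than on day 3. With the RNA integrity number 23.2% of genes were called between day 14 and day 0. Without the block 14.5% were called between day 14 and day 3. ZFPM1 did not pass the stricter filter, so it has no value there. Its values rested on a median of 48 fragments per library.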
